A study of Homo sapiens with 11 samples.

Results

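A set of 30 genes that the transcription factor p53 is known to activate was followed in 2 human lung adenocarcinoma cell lines, A549 and HCC827. The genes were chosen by name for their known response to p53, with no measured value in the rule, and they were 30 of the 20249 genes that could be named on the array and held 45 of its 42405 probes. For each gene the probe that was brightest over all arrays was used, so 18 genes were read from their single probe and 12 from 1 of several. RNA was measured on 11 Agilent arrays in 1 colour. The cells were stable transfectants that carried either the empty pMXs-Neo vector (mock) or the same vector with wild-type TRIM58 (TRIM58-WT), an E3 ubiquitin ligase of the tripartite motif family, and all had been selected with G418. The groups were A549 mock (3 replicates on 4 arrays, since arrays 1-1 and 1-2 carry the same control cell and were averaged), A549 TRIM58-WT (3 replicates), HCC827 mock (2 replicates) and HCC827 TRIM58-WT (2 replicates). The study described the A549 transfectants as clones and the HCC827 transfectants as crude transfectants, that is, not cloned. The labels do not say how separate the cells of a group are, so each p-value measures the spread between these samples, which may be technical.

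p53 is held at a low level in unstressed cells because MDM2, itself a p53 target, marks it for degradation. When DNA is damaged or growth is deregulated p53 accumulates, binds a pair of short repeats in its target genes and raises transcripts that halt the cell cycle, repair DNA, adjust metabolism or start cell death.

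The p53 consensus site was searched in the promoter windows that RefSeq annotation (GRCh38.p14) gives from 250 bases before to 50 bases after each transcription start. A site was 2 adjoining half-sites of 10 bases with no spacer, the fixed C and G of each half-site present and at most 3 other mismatches over the 20 bases. The consensus reads the same on both strands, so the search covered both. Windows were held for 25 of the 30 members, all but GADD45A, PHLDA3, RRM2B, TP53INP1 and TNFRSF10B. Such a site was found for 8 of the 25, whereas 1.37% of the 27305 genes with a window held one. With at most 2 mismatches it was found for AEN, DDB2, FAS and MDM2, beside 0.359% of all genes. The sequences are shown because they carry the letters p53 is known to bind and because DDB2, RPS27L, FDXR, AEN and GDF15 differed between the lines. They run 5′ to 3′ on the strand of the gene, with the matched 20 bases in capitals.

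DDB2 (chr11:47214964-47214993, plus strand): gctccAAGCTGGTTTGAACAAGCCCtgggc
RPS27L (chr15:63157497-63157576, minus strand): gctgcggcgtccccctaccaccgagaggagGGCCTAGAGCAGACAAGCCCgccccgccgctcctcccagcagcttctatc
FDXR (chr17:74872995-74873045, minus strand): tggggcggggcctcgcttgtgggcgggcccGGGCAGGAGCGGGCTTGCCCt
AEN (chr15:88621276-88621339, plus strand): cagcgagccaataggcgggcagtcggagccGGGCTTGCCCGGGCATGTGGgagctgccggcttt
GDF15 (chr19:18386181-18386207, plus strand): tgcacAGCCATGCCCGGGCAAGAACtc
MDM2 (chr12:68808893-68808972, plus strand): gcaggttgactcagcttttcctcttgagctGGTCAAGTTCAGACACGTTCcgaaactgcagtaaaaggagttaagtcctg
FAS (chr10:88991279-88991358, plus strand): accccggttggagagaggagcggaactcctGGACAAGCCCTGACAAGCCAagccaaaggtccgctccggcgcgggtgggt
SESN1 (chr6:109008989-109009067, minus strand): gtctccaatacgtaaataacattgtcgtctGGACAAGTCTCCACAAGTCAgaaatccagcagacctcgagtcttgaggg

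The site of DDB2 had 1 mismatch and ran from base -5 to base 15 around the start, and that of GDF15 lay from base 29 to base 48 of the transcript. The other sites lay before the start, the nearest at -21 for FDXR and the farthest at -122 for FAS. A match is a description of the letters and no evidence that p53 was bound there in these cells.

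All levels below are log2 signal minus the 75th percentile of the array, so 0 is the level of the probe at that percentile. A level says nothing about another gene's level, since probes differ in brightness. Testing was limited to probes that all arrays of 1 or more of the compared groups detected well above background, and a difference was called when limma's Benjamini-Hochberg adjusted p, over all tested probes, was under 0.05 and the change at least 2-fold. Of the 30 members, 24 were well above background on all 11 arrays. The probes of ZMAT3, an RNA-binding protein, and SPATA18, a protein of mitochondrial quality control, were well above background on no array and were not tested.

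The targeted gene, TRIM58, did not follow the labels. Its probe was well above background on 1 array only, A549 mock replicate 3, at -0.71, and lay between -5.64 and -4.63 on the other 10, TRIM58-WT arrays included. Whether the probe lies within the TRIM58 sequence carried by the vector is not given in the sources used here, so directions below refer to the arrays labelled TRIM58-WT. Per its methods, the study checked its clones for the TRIM58 protein with western blots and immunocytochemistry, which were not analysed here. Mock replicate 3 also stood nearer to TRIM58-WT replicates 2 and 3, with SDs of the probe differences of 0.546 and 0.548, than to the other mock arrays, at 0.602 to 0.708. Over the members alone, root mean square differences were 1.01 and 0.935 to those TRIM58-WT arrays and 0.749 to 0.888 to the other mock arrays. This measure keeps shifts between arrays, which the SD removes, so it cannot be set against the SD. It also weighs single large gaps, such as GDF15 at 6.92 on mock replicate 3 and at 2.08 and 2.31 on TRIM58-WT replicates 2 and 3. These 3 arrays shared slide 2 with mock array 1-2, and all HCC827 arrays were on slide 1. Of 6 epithelial markers, all arrays of A549 mock and of both HCC827 groups detected 6 and all arrays of A549 TRIM58-WT detected 4, and no array detected the 3 endothelial or the 3 fibroblast markers. Among leukocyte markers, PTPRC was detected on 7 arrays and CD14 on 9.

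**Figure D1:**
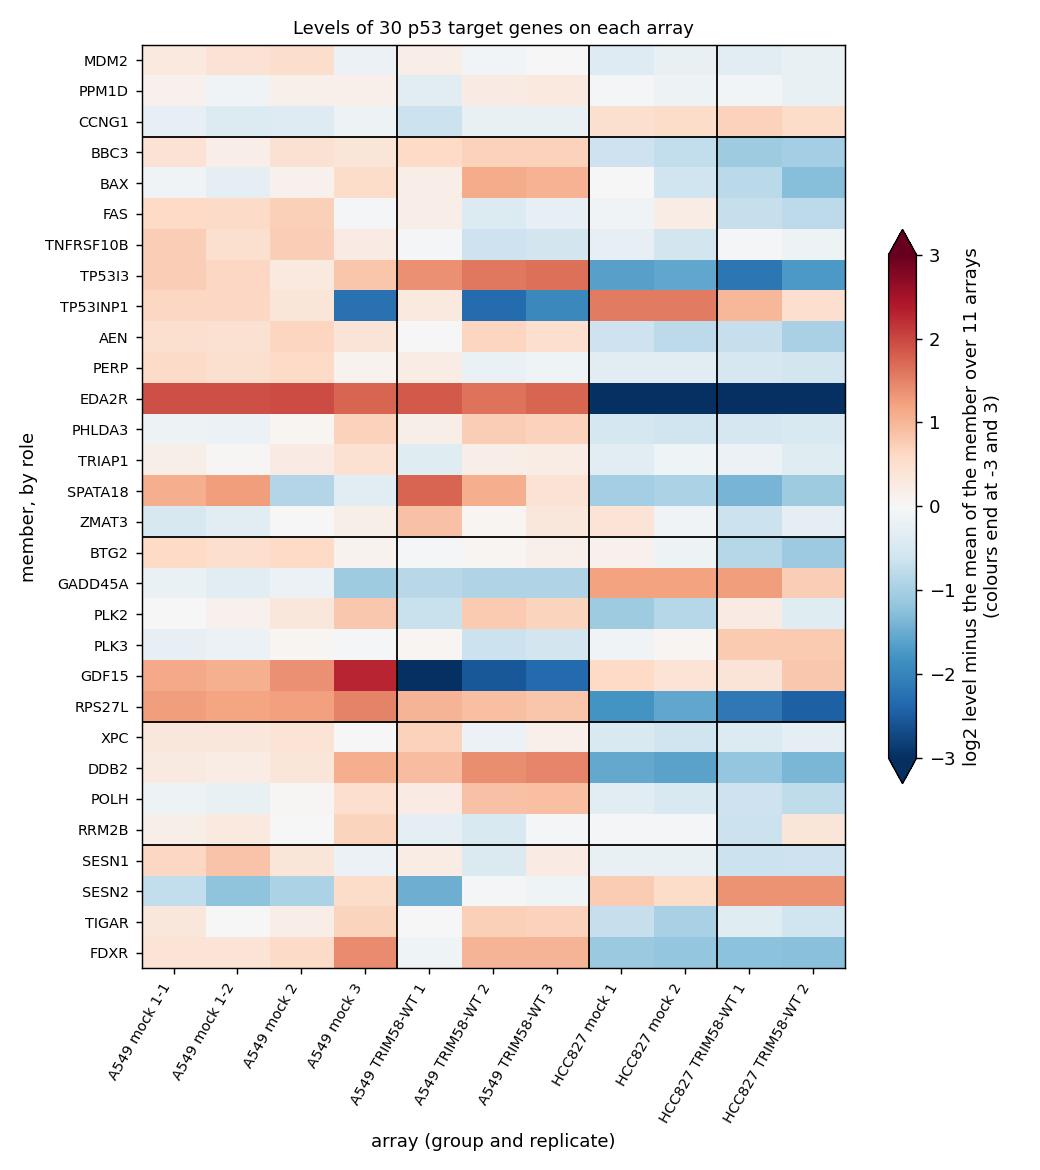
Level of each of the 30 members on each of the 11 arrays, as log2 level minus the member's own mean (colour, ending at -3 and 3), with members in rows by role and arrays in columns by group. EDA2R, RPS27L, TP53I3 and DDB2 separate the A549 from the HCC827 columns, and GDF15 separates the A549 TRIM58-WT columns from the rest.

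The first comparison asked how the target genes stood in the mock transfectants of the 2 lines. Most called members were higher in A549. Of 28 tested, 10 were called higher in A549 mock (35.7%), beside 14.0% of all tested probes, and 1 was called lower (3.57%), beside 16.1%. The median difference, A549 minus HCC827, was 0.64 over the tested members and -0.07 over all tested probes.

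EDA2R, a receptor for ectodysplasin A2 that is induced by p53, was detected in A549 alone. Its levels on A549 mock arrays 1-1, 1-2, 2 and 3 were -0.39, -0.40, -0.38 and -0.59, and on HCC827 mock arrays 1 and 2 were -5.41 and -5.42. The HCC827 signal was not well above background, so the difference is a bound of at least 6.87-fold. EDA2R entered the test through the A549 arrays alone, where it is high, so its call is no support of its own. With probes detected on every array compared, 9 members of 24 were called higher and 1 lower. Under that filter 3376 of all 14775 tested probes were called in either direction. In the TRIM58-WT groups the bound was also at least 6.87-fold, with -0.48, -0.70 and -0.59 on the A549 arrays and -5.78 and -5.49 on the HCC827 arrays. The dimmer EDA2R probe was well above background on no array.

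RPS27L, a relative of ribosomal protein S27, was the member with the largest difference measured on both sides in the mock groups. It read 7.84, 7.79, 7.83 and 8.08 on A549 mock arrays 1-1, 1-2, 2 and 3, and 4.80 and 5.04 on the HCC827 mock arrays. The log2 difference was 2.99 ± 0.17 (SE, 3 and 2 replicates), or 7.92-fold, with an adjusted p of 4.32e-06 in limma. It was 3.22 ± 0.18 between the TRIM58-WT groups, where the A549 arrays read 7.62, 7.50 and 7.42 and the HCC827 arrays 4.45 and 4.15. No A549 array overlapped with an HCC827 array.

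Among the 13 members tied to cell death, 11 were tested, 4 were called higher in A549 mock and none lower. TP53I3, a quinone oxidoreductase linked to oxidative stress, read 4.87, 4.76, 4.43 and 4.95 on the 4 A549 mock arrays and 2.49 and 2.58 on the HCC827 mock arrays. Its difference was 2.20 ± 0.22, or 4.58-fold (limma, adjusted p = 8.13e-05), and its second probe gave 2.22. AEN, a nuclease that promotes apoptosis, read 0.71, 0.69, 0.86 and 0.60 against -0.40 and -0.56, a difference of 1.20 ± 0.22 (adjusted p = 0.00277). BBC3, the pro-apoptotic protein PUMA, averaged 2.74 in A549 mock and 1.68 in HCC827 mock, a difference of 1.06 ± 0.14. The death receptors were less far apart. TNFRSF10B (DR5) was 0.94 higher and FAS 0.35 higher in A549 mock, the first with an adjusted p of 0.011 but under the 2-fold limit and the second with an adjusted p of 0.34.

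Of the 4 DNA repair members, DDB2 was called. This damage sensor of nucleotide excision repair read 4.37, 4.32, 4.47 and 5.20 on the A549 mock arrays and 2.57 and 2.50 on the HCC827 mock arrays, a difference of 2.14 ± 0.28 (limma, adjusted p = 0.000424). XPC, which works beside DDB2, differed by 0.77 with an adjusted p of 0.0424 and stayed under 2-fold. POLH, a polymerase that copies past lesions, and RRM2B, a ribonucleotide reductase subunit, did not pass the test, at 0.51 and 0.35.

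Of the 4 members of metabolism and stress response, 2 were called. FDXR, the mitochondrial ferredoxin reductase, read 5.59, 5.60, 5.75 and 6.60 on the A549 mock arrays and 4.08 and 4.02 on the HCC827 mock arrays, a difference of 1.93 ± 0.41 (limma, adjusted p = 0.00537). TIGAR, which lowers glycolytic flux, read -0.47, -0.79, -0.60 and -0.12 against -1.49 and -1.76, a difference of 1.17 ± 0.27. The sestrins, inhibitors of mTORC1, did not pass: SESN1 was 0.53 higher and SESN2 1.11 lower in A549 mock, with adjusted p of 0.187 and 0.134.

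The 6 members of growth arrest and signalling were mixed. GADD45A, a stress sensor that slows the cell cycle, was the called member that was lower in A549 mock, at 1.70, 1.59, 1.73 and 0.85 against 3.12 and 3.12 in HCC827, a difference of -1.71 ± 0.28 (limma, adjusted p = 0.00144). PLK2, a polo-like kinase, read 3.01, 3.15, 3.35 and 3.83 against 1.94 and 2.16, a difference of 1.37 ± 0.44. GDF15, a secreted stress cytokine of the TGF-beta family, read 5.77, 5.71, 6.01 and 6.92 against 5.22 and 5.04, a difference of 1.09 ± 0.38. The adjusted p of PLK2 and GDF15 were 0.0364 and 0.048 in limma, and PLK2 lost its call in 8 and GDF15 in 12 of 16 alternative settings. Without HCC827 mock replicate 2, 7 members rather than 11 were called.

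The 3 members that restrain p53 or its pathway were not called. MDM2 was 0.54 higher in A549 mock (limma, adjusted p = 0.0854), but its second brightest probe gave 2.15 and was called (adjusted p = 0.000119). Its dimmest probe, detected on 5 of 11 arrays, gave 1.08 (limma, adjusted p = 0.0168). That probe entered the test through the A549 mock arrays alone, where it is high, so its call is no support of its own. PPM1D, a phosphatase that inactivates p53, differed by 0.22 (limma, adjusted p = 0.424). CCNG1, cyclin G1, was 0.81 lower in A549 with an adjusted p of 0.00751, under the 2-fold limit.

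The same question in the TRIM58-WT groups gave 15 called members of 26 tested. Of these, 11 were called higher in A549 (42.3%), beside 15.7% of all tested probes, and 4 were called lower (15.4%), beside 16.7%. The medians were 0.57 over the members and -0.02 over all probes. AEN, BBC3, DDB2, EDA2R, FDXR, RPS27L and TP53I3 were called higher in both comparisons, which makes 70% of those called in the mock groups and 63.6% of those called here. GADD45A was called lower in both. EDA2R is counted in these shares although it entered both tests through the A549 arrays alone, so its calls are no support of their own. With probes detected on every array compared, 14 members were called in the TRIM58-WT groups, EDA2R not among them. Under that filter 3708 of all 14728 tested probes were called in either direction.

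A further 4 members were called higher in A549 in the TRIM58-WT groups alone. BAX, a pore-forming protein of mitochondrial cell death, had a difference of 1.83 ± 0.36, POLH of 1.37 ± 0.27, BTG2, an antiproliferative co-regulator, of 1.03 ± 0.20, and PHLDA3, an inhibitor of AKT, of 1.01 ± 0.28. GDF15 (-3.30 ± 0.38), SESN2 (-1.90 ± 0.55) and PLK3, another polo-like kinase (-1.17 ± 0.23), were called lower. Of these 7 genes, GDF15 alone had a difference between the lines that was itself called as different between the TRIM58-WT and the mock groups. PHLDA3 lost its call in 10 and BTG2 in 5 of 17 alternative settings. PHLDA3 lost it without A549 TRIM58-WT replicate 2 or 3 and without either HCC827 replicate, BTG2 without A549 replicate 3 or HCC827 replicate 2, and SESN2 without either HCC827 replicate. By their second probes, BAX (1.49, limma adjusted p = 0.0869) and AEN (0.97, under the 2-fold limit) were not called between the TRIM58-WT groups. On slide 1 alone, which held 1 A549 TRIM58-WT array (replicate 1), AEN, BTG2, PHLDA3, PLK3 and POLH were not called between the TRIM58-WT groups, while RPS27L (3.33) and TP53I3 (3.32) were.

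**Figure D2:**
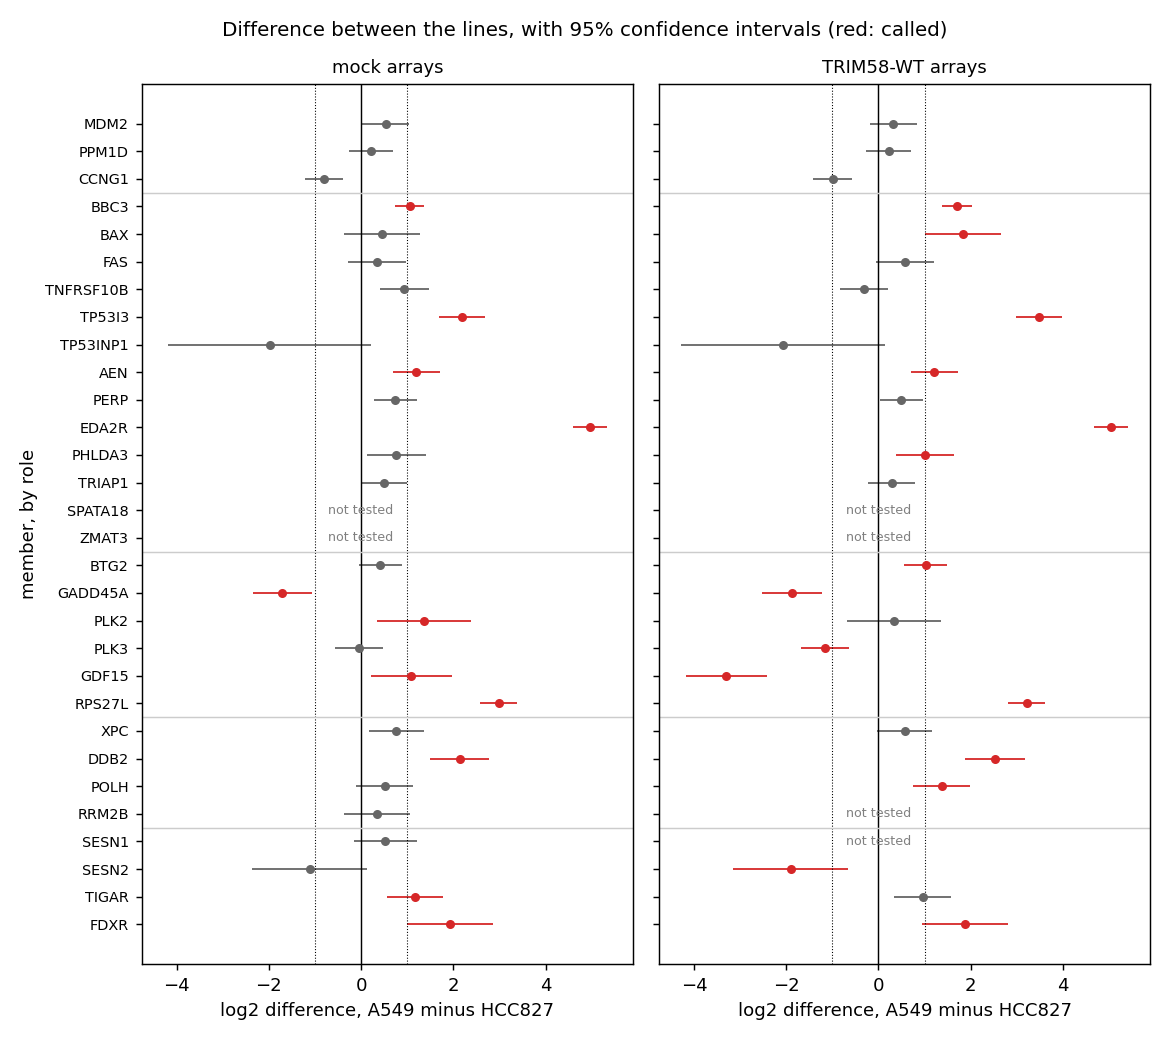
Log2 difference, A549 minus HCC827, of each tested member in the mock (left) and TRIM58-WT (right) groups, with 95% confidence intervals, red where called and dotted lines at 2-fold. EDA2R lies near 5 on the axis in both panels, where its HCC827 signal was not above background, and GDF15 passes from 1.09 in the left panel to -3.30 in the right.

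Genes that act on p53 and further p53 targets were counted in the same way. In both between-line comparisons, 1 of 15 tested genes that act on p53 was called higher in A549 and 4 lower. Over all tested probes, 14.0% were called higher and 16.1% lower in the mock groups, and 15.7% and 16.7% in the TRIM58-WT groups. Among genes that act on p53, the log2 difference between the mock groups, A549 minus HCC827, was 2.32 for CREBBP, a p53 co-activator (limma, adjusted p = 0.0013), and -6.85 for CDKN2A, whose ARF product restrains MDM2 (limma, adjusted p = 1.38e-06). Of 27 tested further targets, 8 were called higher, beside 14.0% of all tested probes, and 5 lower, beside 16.1%. CDKN1A, CYFIP2 and TNFRSF10C entered this test only through the group where they were high, so a call for them is no support of its own. CDKN1A, which encodes the cyclin-dependent kinase inhibitor p21, averaged -0.16 in A549 mock and was not well above background in HCC827 mock, a bound of at least 8.43-fold. In the TRIM58-WT groups the bound was at least 5.20-fold.

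Other listed genes called in more than 1 comparison are given next, with HIPK2, RCHY1 and TNFRSF10C compared between the lines in the mock groups alone. Among those that act on p53, HIPK2, a kinase that activates p53, and RCHY1, a ubiquitin ligase for p53, were lower in A549 mock. The first was lower by at least 7.78-fold and the second by at least 1.86-fold, and both entered that test through the HCC827 arrays alone. Among further targets, NINJ1 (1.42 in the mock and 2.08 in the TRIM58-WT groups), DRAM1, a protein of autophagy (1.34 and 1.37), SERTAD1 (1.03 and 1.37) and FBXO22 (1.15 and 1.27) were called higher in A549 in both. CYFIP2 was at least 3.18-fold higher in A549 mock and 1.05 higher on the log2 scale in A549 TRIM58-WT. PMAIP1, the pro-apoptotic protein NOXA (-1.34 and -2.01), FBXW7, a ubiquitin ligase subunit (-1.36 and -1.31), KITLG (-1.14 and -1.13) and ATF3, a stress-response transcription factor (-1.14 and -2.75), were called lower in both. TNFRSF10C, a decoy receptor for TRAIL, was at least 4.08-fold lower in A549 mock. Within the lines, ATF3 fell in A549 TRIM58-WT by 1.82 and TNFRSF10C in HCC827 TRIM58-WT by 1.65 on the log2 scale, and these were the called genes among the further targets there.

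The next comparison asked what differed between the arrays labelled TRIM58-WT and mock within A549. Of 25 tested members 1 was called (4%), beside 6.92% of all tested probes, and this was GDF15, which fell. The 4 mock arrays read 5.77, 5.71, 6.01 and 6.92 and the 3 TRIM58-WT arrays 1.43, 2.08 and 2.31. The log2 difference was -4.28 ± 0.38 (SE, 3 and 3 replicates), a 19.5-fold lower level (limma, adjusted p = 0.00275). The groups did not overlap, and mock replicate 3 was the highest of all arrays. Fewer cells with a transcript and less RNA per cell cannot be told apart in such bulk samples. The difference was -4.46 on the arrays of slide 1 and -4.12 on those of slide 2.

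TP53I3 and TNFRSF10B differed in opposite directions by a little under 2-fold. TP53I3 read 5.50, 5.72 and 5.79 on the TRIM58-WT arrays against 4.43 to 4.95 on the mock arrays, a difference of 0.94 ± 0.20 (limma, adjusted p = 0.0382). Its second probe gave 0.70 and did not pass (limma, adjusted p = 0.0774). TNFRSF10B read 3.95, 3.40 and 3.47 against 4.26 to 4.75, a difference of -0.94 ± 0.23 with an adjusted p of 0.0531. Both passed the limits for a call when mock replicate 3 was left out, at 1.05 and -1.08, and when TRIM58-WT replicate 1 was left out, at 1.02 and -1.11. No other member passed at an adjusted p under 0.05.

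The other 22 tested members lay between -0.57 and 0.69. At an unadjusted p under 0.05, 5 of the 25 passed, beside 25.3% of all tested probes, and the median was -0.14 over the members against 0.06 over all probes. BAX (0.62), DDB2 (0.69) and POLH (0.57) were above mock and FAS (-0.57) and PERP (-0.44), a membrane protein of apoptosis and cell adhesion, below it, none with an adjusted p under 0.05. MDM2 had a difference of -0.20 and CDKN1A of -0.83, with adjusted p of 0.64 and 0.0624.

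TP53INP1, a stress-induced partner of p53, was not tested in A549, where its levels split within both groups. It read -1.62, -1.63, -1.87 and -4.48 on the mock arrays and -1.94, -4.55 and -4.18 on the TRIM58-WT arrays. The 3 low arrays were mock replicate 3 and TRIM58-WT replicates 2 and 3. These 3 arrays lay together above or below the other 4 A549 arrays for 16 of the 30 members (53.3%), beside 40.9% of the probes tested in A549, a description of arrays singled out after their values were seen. The 2 shares rest on unlike sets, since the 30 include 5 members not tested in A549, and TP53INP1, 1 of those, is among the 16. The 16 included BAX, DDB2, POLH, FDXR and SESN2, at the higher side, and FAS and PERP, at the lower. SESN1, RRM2B, ZMAT3 and SPATA18 were not tested there either.

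Other measures moved with the A549 contrast. Of the 6 epithelial markers, EPCAM, KRT8 and KRT19 were called lower on the TRIM58-WT arrays. CD14, a leukocyte marker, was called lower too, at a mean of -2.22 against 0.84. EPCAM, KRT19 and CD14 entered this test through the mock arrays alone, where they are high, so their calls are no support of their own. On the A549 TRIM58-WT arrays, EPCAM and CD14 were well above background on 1 array each and KRT19 on 0. Median changes by chromosome were taken over named genes, each by its brightest tested probe. The median was -0.50 for chromosome 8, which holds TNFRSF10B, TP53INP1 and RRM2B, and -0.48 for chromosome 5, which holds PLK2 and CCNG1. It was 0.23 for chromosome 19, which holds BBC3, BAX and GDF15. Over all tested probes, a different unit, the median was 0.06. Their part in the members' values was not tested.

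In HCC827 none of 27 tested members was called (0%), beside 0.884% of all tested probes, with limma at 2 and 2 replicates. At an unadjusted p under 0.05, 9 of the 27 passed, 3 above mock and 6 below, beside 20.3% of all tested probes. The median over the members was -0.08, against 0.01 over all probes. PLK3 came nearest, at 1.08 and 1.23 on the mock and 1.95 and 1.97 on the TRIM58-WT arrays, a difference of 0.81 ± 0.14 with an adjusted p of 0.0879. BTG2 followed, at 0.86 and 0.58 against -0.14 and -0.36, a difference of -0.97 ± 0.17 with an adjusted p of 0.0939.

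Other values in HCC827 were of similar size and did not pass. PLK2 (0.91) and SESN2 (0.69) were above mock, and TP53INP1 (-0.81), FAS (-0.79), BAX (-0.76) and RPS27L (-0.62) below it. GDF15 read 5.22 and 5.04 on the mock and 5.02 and 5.45 on the TRIM58-WT arrays, a difference of 0.10 with a 95% confidence interval from -0.43 to 0.64. TP53I3 differed by -0.35, with an interval from -0.89 to 0.18, and TNFRSF10B by 0.31, with an interval from -0.14 to 0.76. EDA2R, ZMAT3 and SPATA18 were not tested in this line.

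**Figure D3:**
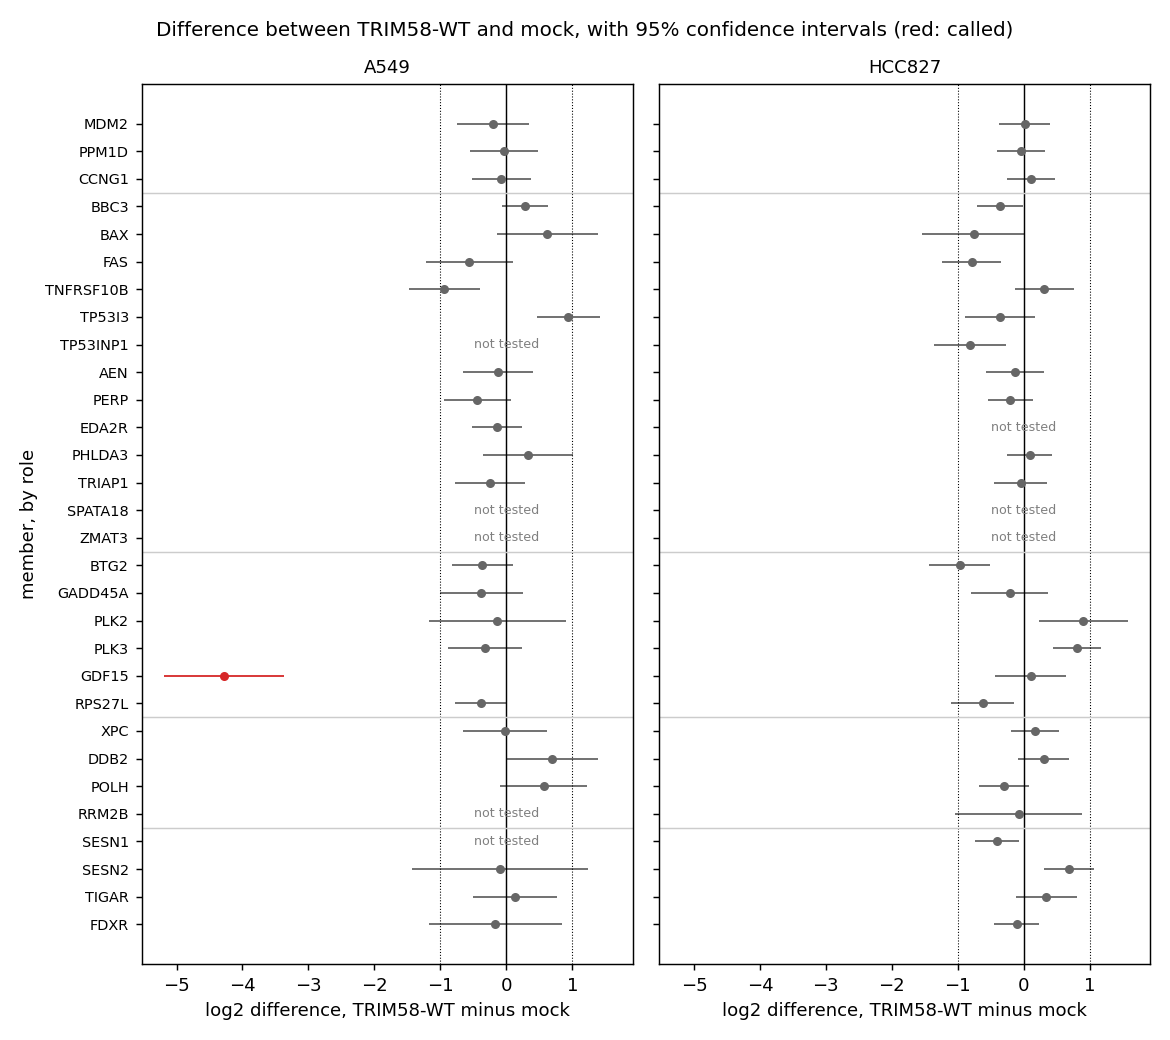
Log2 difference, TRIM58-WT minus mock, of each tested member in A549 (left) and HCC827 (right), with 95% confidence intervals, red where called and dotted lines at 2-fold. GDF15 at -4.28 in A549 is the single called member, and no member is called in HCC827.

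Whether the TRIM58-WT difference itself differed between the lines was tested as a contrast over all 4 groups, called at the adjusted p alone. Of 28 tested members 1 was called, beside 3.86% of all tested probes, and it was again GDF15, whose change in A549 minus that in HCC827 was -4.39 ± 0.54 (limma, adjusted p = 0.00494). TP53I3, at 1.29 ± 0.31, and TNFRSF10B, at -1.25 ± 0.33, did not pass, with adjusted p of 0.0601 and 0.0803. BAX had 1.37 ± 0.51 and PLK3 -1.13 ± 0.32, with adjusted p of 0.192 and 0.101.

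**Figure D4:**
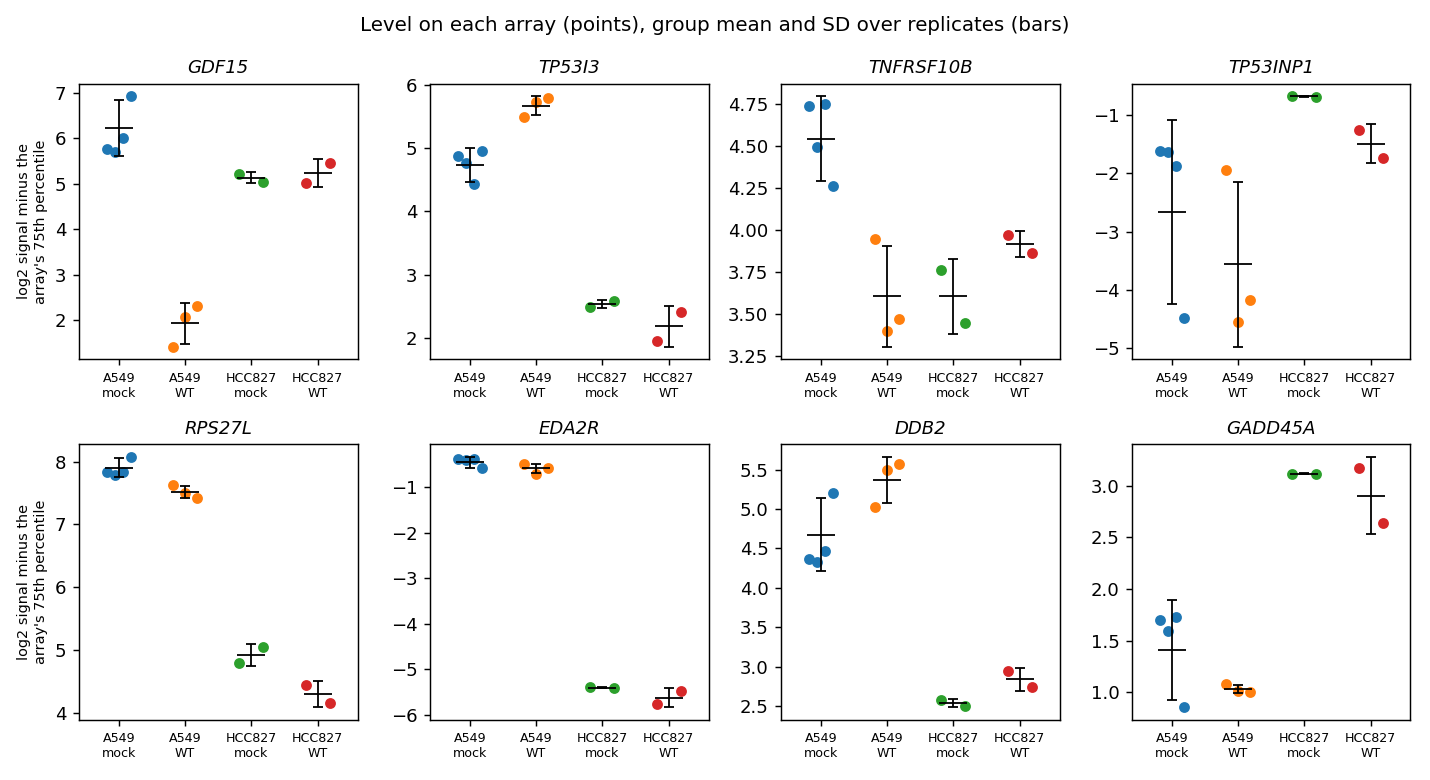
Level of 8 members on each array (points) in the 4 groups, as log2 signal minus the 75th percentile of the array, with the group mean and SD over replicates (bars); each panel has its own axis, which does not start at 0. GDF15 is lowest on the A549 TRIM58-WT arrays, at 1.43 to 2.31, TP53INP1 splits within both A549 groups, and RPS27L, EDA2R and DDB2 are higher on every A549 array than on any HCC827 array.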

How the data were processed

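Total RNA was labelled with Cy3 and hybridised to SurePrint G3 Human GE 8 x 60k arrays (11 arrays on 2 slides). Per the file headers, the authors extracted each spot's intensity in version 11.5.1.1 of Agilent Feature Extraction, with background and spatial trend removed and no scaling between arrays, while the submitters' processing notes name version 10.7. A table of log2 values that the authors deposited was used as an alternative. Of its values, 95.47% differed between arrays as the values computed here did, within 0.01. Its column medians ran from -0.125 to 0.46, and the baseline subtracted from each probe is unknown.

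Control and outlier spots were dropped and the spots of a probe averaged before log2 was taken, and each array was then scaled to its own 75th percentile. Probes were named through RefSeq accessions (27241 of 28302 with one). The 75th percentile signal ran from 56.6 to 125, 40.1% to 50% of probes were well above background, 0 spots were saturated and 28 probe values were missing. The number of arrays limits the precision. R 4.3.3 and limma 3.58.1 (lmFit, eBayes) were used, with each line fitted alone for its own contrast and all 4 groups together for contrasts between lines. Promoter searches and plots were made in Python 3.11.15, the plots with matplotlib 3.10.9. Scripts were tested on simulated data.

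The members, gene lists and tests were chosen with earlier results of these data known. Per-array values are given for members called within a line or in the difference between lines and for the 10 largest called differences between mock groups, the rest by means, ranges and counts; TNFRSF10B and TP53INP1 were given per array after their values were seen, as were PLK3 and BTG2 in HCC827. The alternatives tried were a median shift, quantile normalization, normexp (offset 50), other filters, the authors' table, the second brightest probe, mock arrays 1-1 and 1-2 counted separately, the methods' t-test, one fit for both lines or for 2 groups, a replicate block, slide as a block or alone, and each replicate left out. Some listed genes are not reported here. Averaging TRIM58-WT replicates 2 and 3 was added after seeing the data. The labels do not say whether same-numbered samples were pairs, and so few replicates cannot settle it, so the block is an alternative only.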

Additional observations from a re-analysis of the deposited data

Results flagged for a closer look

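GDF15 changed differently in the 2 lines: its log2 difference between TRIM58-WT and mock in A549 minus that in HCC827 was -4.39, and the difference itself passed the test (limma, adjusted p = 0.00494). All 3 A549 TRIM58-WT arrays lay below all 4 A549 mock arrays, and in HCC827 the arrays of both groups overlapped.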

How the results depend on the processing

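No called member changed sign under any alternative. In A549, GDF15 kept its call under 20 of 21 alternatives, between -4.65 and -3.93, and lost it with the methods' t-test (adjusted p = 0.0895), which called 0 members; leaving out 1 replicate gave 1 to 3 called members, 3 without mock replicate 3 or without TRIM58-WT replicate 1, where TP53I3 and TNFRSF10B joined. In HCC827 0 members were called under every alternative, but 0 of all tested probes were called with no filter, the methods' t-test or the replicate block and without mock replicate 1 or 2, so those settings show no stability; the others called 106 to 633 probes. Between the mock groups, a median shift and normexp each gave 7 called members, and leaving out 1 replicate gave 7 to 11, 7 without HCC827 mock replicate 2. BBC3, DDB2, FDXR, GADD45A, GDF15, RPS27L and TP53I3 kept their calls between the TRIM58-WT groups under every alternative that could be fitted. EDA2R was called there too, but could not be tested with probes detected on every array or by its second probe. It entered through the A549 arrays alone, so these calls are no support of their own. Between the TRIM58-WT groups the median shift, which moved the median of all probes from -0.02 to -0.44, called 7 members higher and 6 lower rather than 11 and 4. For the difference between lines, normexp gave 2 called members, mock arrays 1-1 and 1-2 counted separately 3 and slide as a block 3, and leaving out 1 replicate gave 1 to 4, 3 without A549 mock replicate 3 and 4 without A549 TRIM58-WT replicate 1; GDF15 was called in all 21. With the replicate block, 1 member was called in A549, 0 in HCC827 and 1 in the difference, as without it. Same-numbered A549 replicates had correlations of deviations of 0.50, -0.42 and 0.50, and those of HCC827 0.077. The cause of these changes was not tested. Members near background, such as EDA2R in HCC827, have only a bound.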
